A study of Mus musculus with 6 samples.

Results

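The collagen genes examined here are those outside the set of cartilage fibril collagens. They were taken from the deposited gene table by name, as every symbol of the form Col, number, a, number, after leaving out the genes of the cartilage collagens II, IX, X, XI and XXVII (Col2a1, Col9a1, Col9a2, Col9a3, Col10a1, Col11a1, Col11a2 and Col27a1). This left 36 of 44 collagen genes, in a table of 23351 genes. No expression value entered this rule, though earlier results of these data were known when it was set. The cells were primary chondrocytes of C57BL/6 mice, taken at postnatal day 3 from the cartilage of the knee, released with collagenase D, grown until confluent and exposed to 100 ng/ml recombinant human BMP-2 for 24 hours. All libraries shared this treatment, so no level without BMP-2 was measured. Control cells (3 libraries) were compared with cells carrying a conditional knockout (cKO) of Uhrf1 (3 libraries), a gene whose protein recruits the maintenance DNA methyltransferase to newly replicated DNA. The sources used here do not name the Cre line or the cells in which it acts.

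Collagens are secreted proteins in which chains wind around each other as a helix, and each type has its own chain composition. Collagens I, III and V form the fibrils of bone, tendon, skin and perichondrium; collagen V starts the fibril and sets its width. Collagen IV forms the sheet of basement membranes, collagen VI the beaded filaments around cells, which in cartilage surround each chondrocyte, and collagens XII, XIV and XVI sit on fibril surfaces. A chondrocyte in hyaline cartilage makes mostly collagen II, and cells that leave that state in culture are known for making more collagen I.

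Expression was given in FPKM, fragments scaled to transcript length and to the fragments mapped in the library, so levels of different genes can be set side by side. Absolute depth is unknown; relative depth, read from the steps between low values, was 0.862 to 1.02 with Control 1 set to 1. Uhrf1 itself stood at 28.2, 22.9 and 30.6 FPKM in the controls and at 3.22, 3.17 and 2.73 FPKM in the cKO libraries. Chondrocyte markers were expressed in both groups, with Acan, the aggrecan gene, at 1150 ± 184 FPKM in control and 659 ± 37.8 FPKM in cKO (SD, n = 3). A prefix in the sample labels is shared by all controls and differs from that of all cKO libraries, so its meaning and the genotype cannot be told apart. The labels do not say that libraries came from separate animals, and p-values therefore cover the spread among these 6 samples alone. Within each group the libraries differ in the sex-linked transcripts Ddx3y and Xist (values below), so they are not all technical repeats of the same cells. Which libraries, if any, share a source is not given.

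Of the 36 genes, 22 reached 1 FPKM in at least 2 libraries and were tested with limma on log2(FPKM + 1), adjusted over all 11911 genes tested, with a threshold of 0.05. In cKO cells 7 were higher (Col5a1, Col5a2, Col5a3, Col4a5, Col4a6, Col12a1 and Col18a1) and 4 were lower (Col4a2, Col6a1, Col6a3 and Col28a1). Over all genes tested, 17.8% were called in either direction, 9.81% higher and 7.96% lower. The control and cKO libraries did not overlap for 14 of the 22, against 35.9% of all genes tested. The median difference of the 22 was 0.01 on the log2(FPKM + 1) scale and that of all genes 0.00039. Col4a6, Col26a1 and Col28a1 passed the expression filter through the libraries of 1 group. Among the other 19, 6 were higher and 3 lower. Without Control 2, cKO 1, cKO 2 or cKO 3 the number higher was 4; the number lower was 7 without Control 1, 2 without Control 3 or cKO 3 and 1 without Control 2, cKO 1 or cKO 2. The calls over all genes, 2116, came to 1268 without cKO 3. The authors' deposited table tested 17 of the 36 and called 8 at a q-value under 0.05, against 22.9% of the 9701 genes it tested. None of the 22 tested genes overlapped another gene of the table. In bulk RNA, fewer cells of a type and less RNA per cell cannot be told apart.

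**Figure D1:**
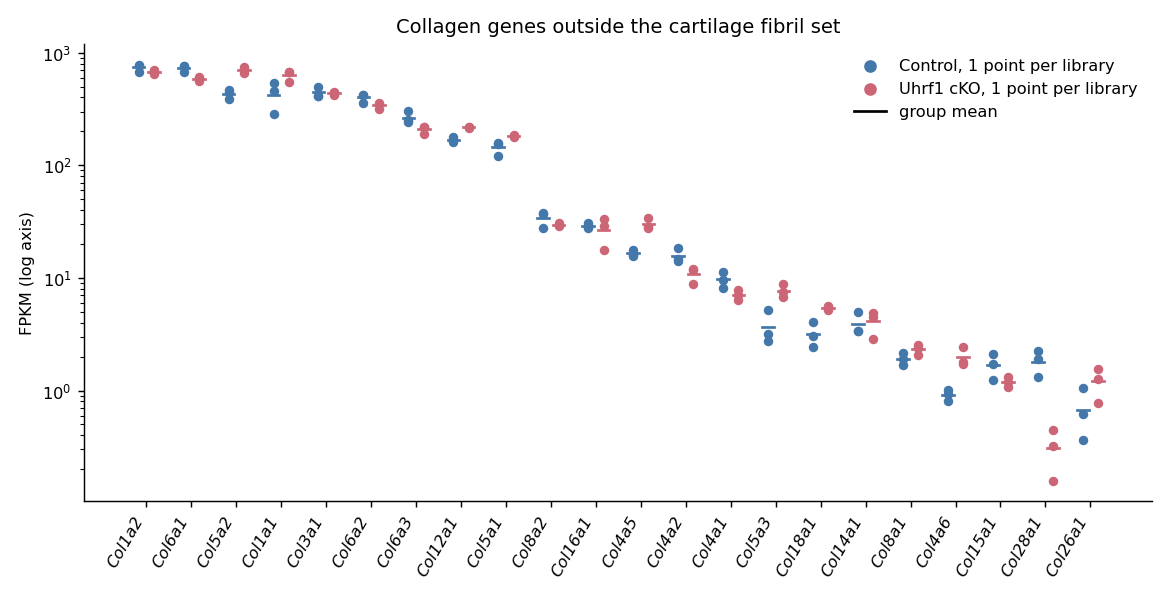
Level of each of the 22 tested collagen genes in every library (y axis, FPKM on a log axis; x axis, genes ordered by mean level), with blue points for the 3 control libraries, red points for the 3 cKO libraries and a bar at each group mean. The levels span from Col1a2, with a mean of 709 FPKM, to Col26a1, with a mean of 0.943 FPKM.

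**Figure D2:**
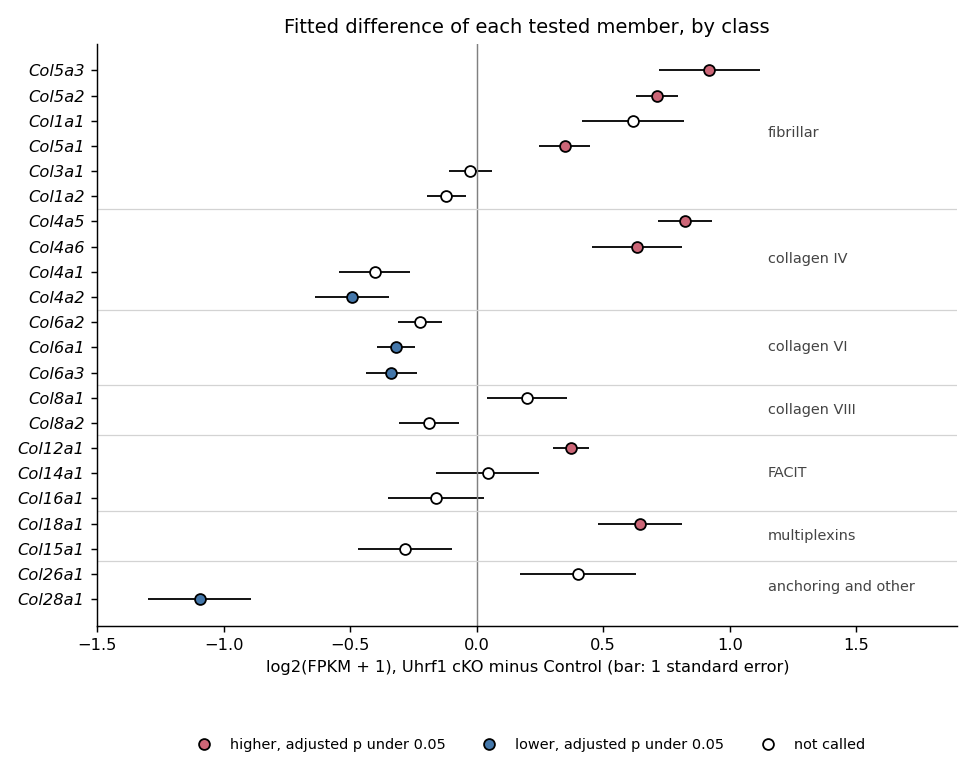
Fitted difference between cKO and control for the 22 tested genes (x axis, log2(FPKM + 1), cKO minus control), grouped by collagen class, with bars of 1 standard error. Filled points passed the limma test (red higher, blue lower): the collagen V genes lie to the right, the collagen VI genes to the left, and collagen IV falls on both sides.

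The fibril-forming genes of collagen V rose in cKO cells. Of the 7 fibrillar genes, 6 were tested, 3 rose and none fell, against 9.81% higher and 7.96% lower over all genes tested. The median difference of the 6 was 0.48 on the log2(FPKM + 1) scale. Col5a2 (chromosome 1, 45374331 to 45503282, mm10, minus strand), the α2 chain of collagen V, stood at 390, 447 and 462 FPKM in the controls and at 741, 717 and 666 FPKM in cKO. Every cKO library lay above every control. Its mean rose 1.64-fold, from 433 ± 37.9 to 708 ± 38.5 FPKM (SD, n = 3; log2 difference 0.71, SE 0.0835, limma adjusted p = 0.00046). Col5a1 (chromosome 2, 27886425 to 28039510, plus strand), the α1 chain, read 122, 154 and 157 FPKM in control and 179, 187 and 183 FPKM in cKO. The groups did not overlap, and the rise was 1.27-fold (log2 difference 0.35, SE 0.101, limma adjusted p = 0.0427). Its call held without Control 1 or Control 3 and was lost without any of the other 4 libraries (limma adjusted p = 0.0549 to 0.122). Col5a3 (chromosome 9, 20770050 to 20815034, minus strand), a less abundant α3 chain, had 2.74, 3.15 and 5.19 FPKM in control and 6.76, 8.92 and 7.43 FPKM in cKO. The highest control was still below the lowest cKO library. The mean rose 2.09-fold (3.69 ± 1.31 to 7.71 ± 1.11 FPKM, SD, n = 3; log2 difference 0.92, SE 0.198, limma adjusted p = 0.012). In the authors' deposited table all 3 genes were also called higher, with q = 0.00462 for Col5a2, 0.047 for Col5a1 and 0.00052 for Col5a3.

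The DNA before the gene start is shown for Col5a1 and Col5a3, which rose together and differ in their density of CG, the dinucleotide that the Uhrf1 and Dnmt1 machinery keeps methylated. DNA methylation was not measured here. The sequences come from RefSeq (GRCm38.p6, the same assembly as mm10), are written 5′ to 3′ on the gene's strand, and have each CG in capitals; CG reads the same on both strands. Col5a1 is chr2:27886175-27886424 (plus strand, 28 CG) and Col5a3 is chr9:20815068-20815317 (minus strand, 17 CG).
Col5a1: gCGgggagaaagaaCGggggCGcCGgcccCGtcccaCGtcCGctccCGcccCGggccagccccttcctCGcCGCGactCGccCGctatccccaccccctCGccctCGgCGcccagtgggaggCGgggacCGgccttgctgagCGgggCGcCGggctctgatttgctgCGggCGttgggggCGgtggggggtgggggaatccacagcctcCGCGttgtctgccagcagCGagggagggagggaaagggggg
Col5a3: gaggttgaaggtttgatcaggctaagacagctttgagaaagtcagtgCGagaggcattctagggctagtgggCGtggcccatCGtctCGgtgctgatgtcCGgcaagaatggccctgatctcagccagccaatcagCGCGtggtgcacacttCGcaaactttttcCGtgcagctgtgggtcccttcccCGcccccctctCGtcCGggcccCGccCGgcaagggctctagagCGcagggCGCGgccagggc
In full windows of 300 bases, 250 before and 50 after the start, Col5a1 held 34 CG and Col5a3 held 20. At least as many were found in 7.73% and 26.5% of all 32851 RefSeq windows of mouse genes, whose median was 7.

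The genes of collagens I and III, the most abundant fibril collagens outside cartilage, did not pass the test. Col1a1 (chromosome 11, 94936270 to 94951856, plus strand), the α1 chain of collagen I, stood at 284, 455 and 537 FPKM in control and at 545, 676 and 681 FPKM in cKO. The groups did not overlap, although Control 3 and cKO 1 lay close together. The ratio of means was 1.49 (425 ± 129 and 634 ± 77.3 FPKM, SD, n = 3; log2 difference 0.62, SE 0.203, limma adjusted p = 0.0666). Without Control 3 the limma adjusted p was 0.0221, and without any other library 0.0725 to 0.187; without Control 1 the log2 difference was 0.35. The authors' deposited table called Col1a1 higher, with q = 0.00431. Col1a2 (chromosome 6, 4505697 to 4541543, plus strand), the α2 chain that joins the α1 chains in collagen I, read 671, 766 and 781 FPKM in control and 653, 685 and 699 FPKM in cKO. These overlapped (log2 difference -0.12, SE 0.0775, limma adjusted p = 0.336). Col3a1 (chromosome 1, 45311538 to 45349706, plus strand), the only chain of collagen III, had 416, 417 and 499 FPKM in control and 449, 419 and 436 FPKM in cKO, also overlapping (log2 difference -0.02, SE 0.0859, limma adjusted p = 0.877). Col3a1 and Col5a2 are neighbours that end towards each other, 24624 bases apart. Col24a1, a fibrillar gene of developing bone, stayed under the filter with 0.313, 0.334 and 0.308 FPKM in control and 0.724, 0.924 and 0.518 FPKM in cKO.

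Ratios of chains within a library do not depend on scaling between libraries, and they moved where chains of 1 molecule parted. The ratio of Col1a1 to Col1a2 was 0.423, 0.594 and 0.687 in the controls and 0.834, 0.987 and 0.973 in cKO. No control reached the lowest cKO value, and the means were 0.568 ± 0.134 and 0.931 ± 0.0848 (SD, n = 3; difference of log2 ratios 0.74). The collagen I molecule most often holds more α1 than α2 chains, while in every library the Col1a1 level was below that of Col1a2. Within collagen V the ratio of Col5a1 to Col5a2 was 0.313, 0.345 and 0.34 in control and 0.241, 0.261 and 0.274 in cKO, lower in every cKO library (difference of log2 ratios -0.36), so the α2 chain had the larger relative rise. The ratio of Col3a1 to Col1a1 was also lower in every cKO library (means 1.10 ± 0.314 and 0.695 ± 0.112, SD, n = 3). Of 10 pairs listed, 9 could be computed, and 6 had groups without overlap. For each of these 6 the two-sided exact permutation test gave p = 0.1, the smallest that 3 against 3 libraries allow, and 0.15 after Benjamini-Hochberg adjustment over the 9 pairs.

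**Figure D3:**
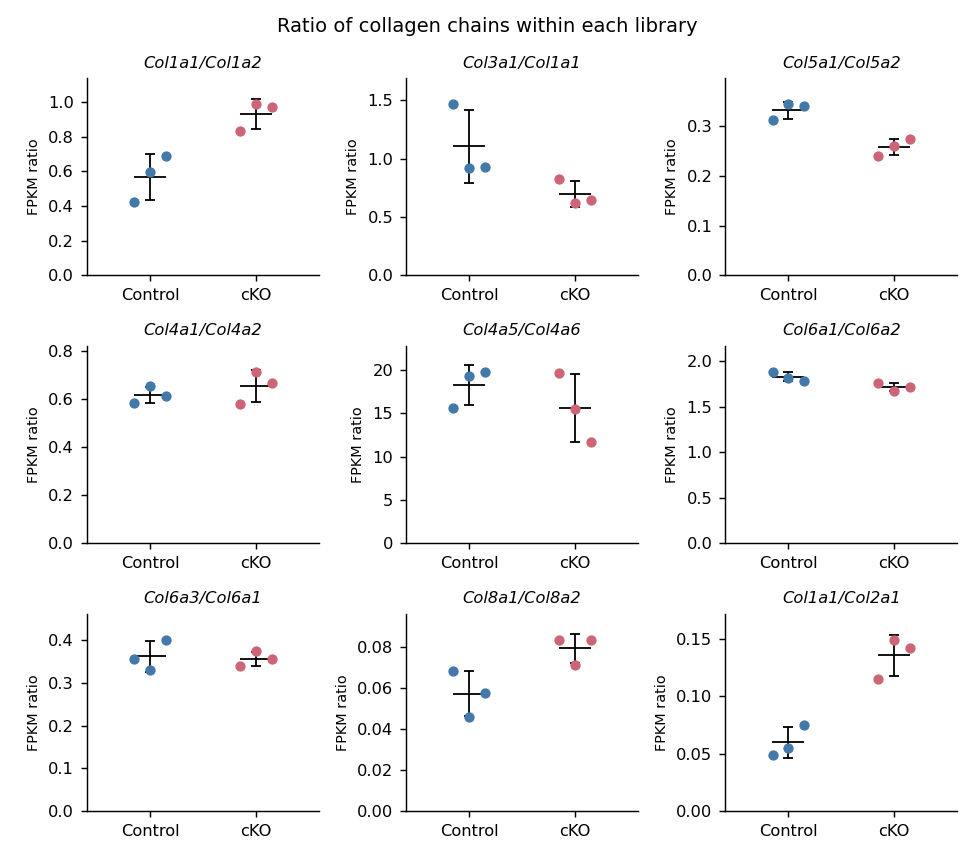
Ratio of FPKM between chains within each library for the 9 computed pairs (y axes, ratio, each starting at 0; x axis, group), 1 point per library (blue control, red cKO), with the mean and 1 SD in black. Col1a1 to Col1a2, Col8a1 to Col8a2 and Col1a1 to Col2a1 were higher in all 3 cKO libraries; Col3a1 to Col1a1, Col5a1 to Col5a2 and Col6a1 to Col6a2 were lower.

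Collagen IV went in both directions. The genes of each tested pair of neighbours differed in the same direction, but Col4a1 was not called. Col4a6 passed the expression filter through the cKO libraries, which largely set its direction. Of these genes, only Col4a5 kept its call without each library. The 6 genes of collagen IV lie as 3 pairs that start next to each other on opposite strands. The chains of a pair are known to be built into the same networks. The pair of the widespread network, Col4a1 and Col4a2, had its starts 2 bases apart in the table (chromosome 8, 11198423 to 11312826 and 11312829 to 11449287). Col4a2 stood at 14.1, 14.6 and 18.5 FPKM in control and at 12.0, 8.90 and 11.7 FPKM in cKO. Every cKO library was below every control, and the mean fell 1.44-fold (log2 difference -0.49, SE 0.146, limma adjusted p = 0.0457). That call held only without Control 1 (limma adjusted p = 0.0439) and was lost without any other library (0.061 to 0.143). Col4a1 read 8.22, 9.55 and 11.3 FPKM in control and 6.99, 6.34 and 7.84 FPKM in cKO, without overlap but short of the threshold (log2 difference -0.4, SE 0.14, limma adjusted p = 0.0787); it was 0.0391 without Control 1 and 0.103 to 0.219 without any other library. The authors' deposited table called both lower, with q = 0.000972 for Col4a1 and 0.00052 for Col4a2. The ratio of Col4a1 to Col4a2 was 0.583 to 0.653 in control and 0.581 to 0.713 in cKO, which overlap (exact permutation p = 0.5).

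Both genes of the X-linked pair were called higher, though only Col4a5 kept its call without each library. Col4a5 (chromosome X, 141475419 to 141689235, plus strand), the gene affected in X-linked Alport syndrome, had 15.7, 17.9 and 15.9 FPKM in the controls and 33.8, 27.8 and 28.4 FPKM in cKO. No control came near the lowest cKO library, and the mean rose 1.82-fold, from 16.5 ± 1.18 to 30.01 ± 3.33 FPKM (SD, n = 3; log2 difference 0.82, SE 0.107, limma adjusted p = 0.000838). Col4a6 (chromosome X, 141165403 to 141474076, minus strand), which starts 1342 bases away on the opposite strand, had 1.01, 0.925 and 0.805 FPKM in control and 1.73, 1.79 and 2.43 FPKM in cKO. All cKO libraries were above all controls (0.913 ± 0.103 and 1.98 ± 0.39 FPKM, SD, n = 3; log2 difference 0.63, SE 0.176, limma adjusted p = 0.0366). The call of Col4a6 was lost without any single library (limma adjusted p = 0.0603 to 0.13). Col4a6 also passed the expression filter through the cKO libraries, which largely set the direction of its difference. Col4a5 exceeded Col4a6 in every library, and their ratio overlapped between groups, at 15.6 to 19.8 in control and 11.7 to 19.6 in cKO (exact permutation p = 0.4). Both genes are X-linked and the libraries differ in sex-linked transcripts. Ddx3y, on the Y chromosome, stood at 31.6, 0 and 24.3 FPKM in control and at 22.2, 0 and 0 FPKM in cKO. Xist, which coats and silences an X chromosome in female cells, read 0.0526, 82.4 and 0.112 FPKM in control and 5.58, 77.9 and 96.3 FPKM in cKO. With Ddx3y as a covariate the limma adjusted p was 0.00288 for Col4a5 and 0.0824 for Col4a6, so the call of Col4a6 was lost. The third pair, Col4a3 and Col4a4, whose chains are typical of kidney filter membranes, was nearly silent, with at most 0.142 FPKM in any library.

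Both members of the X-linked pair are transcribed away from the same stretch of DNA. The bases before each start are shown because both genes were called higher (RefSeq, GRCm38.p6, CG in capitals). Col4a5 is chrX:141475169-141475384 (plus strand, 216 bases with annotated exon left out, 8 CG) and Col4a6 is chrX:141474077-141474326 (minus strand, 3 CG).
Col4a5: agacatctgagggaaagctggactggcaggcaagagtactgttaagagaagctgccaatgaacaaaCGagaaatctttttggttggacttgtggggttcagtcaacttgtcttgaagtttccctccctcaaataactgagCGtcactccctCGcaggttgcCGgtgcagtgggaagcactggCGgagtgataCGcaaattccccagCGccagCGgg
Col4a6: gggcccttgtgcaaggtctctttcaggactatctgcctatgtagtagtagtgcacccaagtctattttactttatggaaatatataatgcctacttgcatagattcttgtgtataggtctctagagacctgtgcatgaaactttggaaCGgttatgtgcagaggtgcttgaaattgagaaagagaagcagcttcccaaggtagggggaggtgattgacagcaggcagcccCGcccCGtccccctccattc
The full windows held 11 and 3 CG, and at least as many were found in 41.4% and 76.7% of all windows. The windows of the other pair, which did not rise, held 37 CG for Col4a1 and 33 for Col4a2, with at least as many in 5.58% and 8.56% of all windows.

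Among the genes of collagen VI, which forms the pericellular filaments of the chondron, those that changed fell in cKO. Of 6 genes, 3 were tested, 2 fell and none rose, against 7.96% lower and 9.81% higher over all genes tested. Col6a1 (chromosome 10, 76708792 to 76726044, minus strand), the α1 chain, stood at 675, 764 and 755 FPKM in control and at 560, 584 and 613 FPKM in cKO. The groups did not overlap, and the mean fell 1.25-fold (731 ± 48.6 to 586 ± 26.5 FPKM, SD, n = 3; log2 difference -0.32, SE 0.0749, limma adjusted p = 0.018). Its call was lost without Control 2, cKO 1 or cKO 2 (limma adjusted p = 0.0633 to 0.0869). Col6a3 (chromosome 1, 90766860 to 90843971, minus strand), the long α3 chain, read 240.5, 252 and 303 FPKM in control and 190.2, 218 and 218 FPKM in cKO, again without overlap. It fell 1.27-fold (log2 difference -0.34, SE 0.101, limma adjusted p = 0.0479), a call that held only without Control 1 (0.0289) and was lost without any other library (0.0788 to 0.167). Col6a2 (chromosome 10, 76595756 to 76623404, minus strand), the α2 chain encoded 85387 bases from Col6a1, had 358, 420 and 422 FPKM in control and 318, 349 and 358 FPKM in cKO. Each cKO library was below every control (log2 difference -0.23, SE 0.087, limma adjusted p = 0.109), and the limma adjusted p was 0.024 without Control 1 and 0.167 to 0.319 without any other library.

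The authors' deposited table called none of the collagen VI genes (q = 0.143 for Col6a1, 0.236 for Col6a2 and 0.104 for Col6a3). The ratio of Col6a3 to Col6a1 was 0.329 to 0.401 in control and 0.339 to 0.374 in cKO, which overlap (exact permutation p = 0.9). That of Col6a1 to Col6a2 was lower in every cKO library, going from 1.83 ± 0.0501 to 1.72 ± 0.0433 (SD, n = 3). Col6a4 and Col6a5, which encode alternative chains related to α3, were listed at 0 in every library, and Col6a6 had at most 0.0886 FPKM.

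Among the collagens that attach to fibril surfaces, Col12a1 rose. Of 6 genes of this class, 3 were tested, 1 rose and none fell, against 9.81% higher and 7.96% lower over all genes tested. Col12a1 (chromosome 9, 79598991 to 79718678, minus strand), whose protein links fibrils in tendon, perichondrium and the joint surface, had 168, 178 and 161 FPKM in control and 221, 216 and 220.3 FPKM in cKO. The libraries of each group lay close together and the groups were well apart. The rise was 1.30-fold, from 169 ± 8.54 to 219 ± 2.5 FPKM (SD, n = 3; log2 difference 0.37, SE 0.0699, limma adjusted p = 0.00617), and it kept its call without each library in turn (limma adjusted p = 0.011 to 0.0341). In the authors' deposited table it missed the threshold, with q = 0.0665. Col14a1, its close relative in tendon and skin, averaged 3.93 ± 0.941 FPKM in control and 4.11 ± 1.09 FPKM in cKO (SD, n = 3; limma adjusted p = 0.906). Col16a1 averaged 29.0 ± 1.59 and 26.7 ± 7.95 FPKM (SD, n = 3; limma adjusted p = 0.621), with cKO 1 at 17.8 FPKM and the other 5 libraries between 27.9 and 33.2 FPKM.

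Of the genes of collagens XV and XVIII, which bind basement membranes and carry sugar chains, 1 of 2 rose. Over all genes tested, 9.81% were higher. Col18a1 (chromosome 10, 77052179 to 77166530, minus strand), the source of the fragment endostatin, had 2.43, 3.07 and 4.03 FPKM in control and 5.20, 5.62 and 5.56 FPKM in cKO. All cKO libraries were above all controls, and the mean rose 1.72-fold (3.18 ± 0.805 to 5.46 ± 0.228 FPKM, SD, n = 3; log2 difference 0.65, SE 0.164, limma adjusted p = 0.025). The call was kept without Control 3 (limma adjusted p = 0.0113) and lost without any other library (0.055 to 0.0833). The authors' deposited table called it higher, with q = 0.00052. Col15a1 averaged 1.69 ± 0.446 FPKM in control and 1.20 ± 0.115 FPKM in cKO, with overlap (SD, n = 3; limma adjusted p = 0.346). The genes of the network-forming collagen VIII overlapped between groups: Col8a2 averaged 34.1 ± 5.45 and 29.5 ± 0.972 FPKM (limma adjusted p = 0.329) and Col8a1 1.92 ± 0.246 and 2.34 ± 0.238 FPKM (limma adjusted p = 0.442; SD, n = 3 throughout). Without Control 1, Col8a2 was called lower (limma adjusted p = 0.0334, log2 difference -0.32), but not without any other library (0.393 to 0.607, log2 difference as small as -0.11).

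The fall of Col28a1 was the only difference of at least 1 on the log2(FPKM + 1) scale among the 22 tested genes. That depends on the scale: with a pseudocount of 0.1, Col5a3 (1.09) and Col4a6 (1.03) also exceeded 1. Col28a1 (chromosome 6, 7997808 to 8192617, minus strand) encodes a short-helix collagen that in mouse is known from peripheral nerve. It had 2.23, 1.31 and 1.89 FPKM in control and 0.444, 0.159 and 0.324 FPKM in cKO. Each control exceeded 1 FPKM and each cKO library was under it, so the gene passed the filter through the controls (log2 difference -1.1, SE 0.205, limma adjusted p = 0.00611; 0.0095 to 0.027 without each library in turn). Passing through 1 group largely set the direction of its difference. The authors' deposited table did not test Col28a1. Of 3 tested markers of Schwann cells, in which Col28a1 is best known, 1 rose (Cdh19). Another was lower (Ngfr, which passed the expression filter through the controls). The shares over all genes tested were 9.81% higher and 7.96% lower. The part of these markers in the fall of Col28a1 was not tested. Sox10, which defines the lineage, was listed at 0 in every library. The bases before the Col28a1 start, chr6:8192618-8192867 (minus strand; RefSeq, GRCm38.p6), are shown because they hold no CG, in contrast to those of Col5a1.
Col28a1: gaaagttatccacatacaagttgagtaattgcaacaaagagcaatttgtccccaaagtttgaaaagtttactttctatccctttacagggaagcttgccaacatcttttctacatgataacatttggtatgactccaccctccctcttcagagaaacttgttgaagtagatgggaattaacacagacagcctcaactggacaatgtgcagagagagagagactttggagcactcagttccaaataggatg
CG counts were read over all collagen genes with a RefSeq window (29 of 36, with 31 windows). They spanned 3 to 34 in 6 windows of risen genes and 0 to 33 in 4 windows of fallen genes. They spanned 0 to 37 in 9 windows of tested genes without a call and 1 to 29 in 12 windows of untested genes. The ranges overlapped. The windows of risen genes do not cover the whole risen set. Col5a2 and Col12a1, which kept their calls without each library, had no window, and neither did the uncalled Col1a1. Col18a1 entered with separate windows of 16 and 6 CG.

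The remaining genes were low. The 14 untested genes reached at most 0.924 FPKM in any library (Col24a1, above); 12 were above 0 somewhere and 2 at 0 everywhere. They include all 4 transmembrane collagen genes (Col13a1, Col17a1, Col23a1 and Col25a1), which encode collagens of cell junctions, epithelium and neurons, and Col7a1, the anchoring fibril gene of skin. With no expression filter, limma tested 34 genes and called none of the 12 low ones; only Col24a1 had an unadjusted p under 0.05 (limma adjusted p = 0.106). Col26a1 passed the filter mainly through cKO libraries (0.678 ± 0.349 and 1.21 ± 0.399 FPKM, SD, n = 3) and was not called (limma adjusted p = 0.275).

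Set against the cartilage collagens, these genes held a larger part of the summed collagen FPKM in cKO cells. Summed over the 36 genes, FPKM came to 3438, 3977 and 4212 in control and to 3983, 4182 and 4212 in cKO, so the totals overlapped. The 8 cartilage genes summed to 8556, 11729 and 9830 FPKM in control and to 6564, 6063 and 6438 FPKM in cKO. The share of the 36 genes in all collagen FPKM was 28.0 ± 2.41% in control and 39.4 ± 1.54% in cKO (SD, n = 3), with every cKO library above every control. Collagen V genes went from 4.19 ± 0.311% to 8.58 ± 0.474% of all collagen FPKM and collagen I genes from 8.37 ± 0.88% to 12.5 ± 1.03%, while collagen VI genes held 10.1 ± 0.833% and 10.8 ± 0.618%, which overlap (SD, n = 3). These shares also move with the cartilage genes in the total: the summed FPKM of the collagen I genes overlapped, at 954 to 1318 in control and 1198 to 1380 in cKO, while that of the collagen V genes did not, at 515 to 624 and 856 to 927. In the cartilage set 5 of 8 genes fell and 1, Col10a1, the gene of hypertrophic cartilage, rose. The shares over all genes tested were 7.96% lower and 9.81% higher. The median difference of the cartilage set was -0.65 on the log2(FPKM + 1) scale against 0.01 for the collagens outside it. The authors' deposited table called Col9a1, Col9a3, Col11a1 and Col11a2 lower and Col10a1 higher, as limma did, but not Col2a1 (q = 0.457). It also called Col9a2 (q = 0.00397) and Col27a1 (q = 0.00139) lower, which limma did not. The ratio of Col1a1 to Col2a1, often used as a measure of chondrocyte state in culture, was 0.0492, 0.0551 and 0.0755 in control and 0.115, 0.1495 and 0.1425 in cKO, with no overlap (difference of log2 ratios 1.20; exact permutation p = 0.1, 0.15 after adjustment over the 9 pairs).

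**Figure D4:**
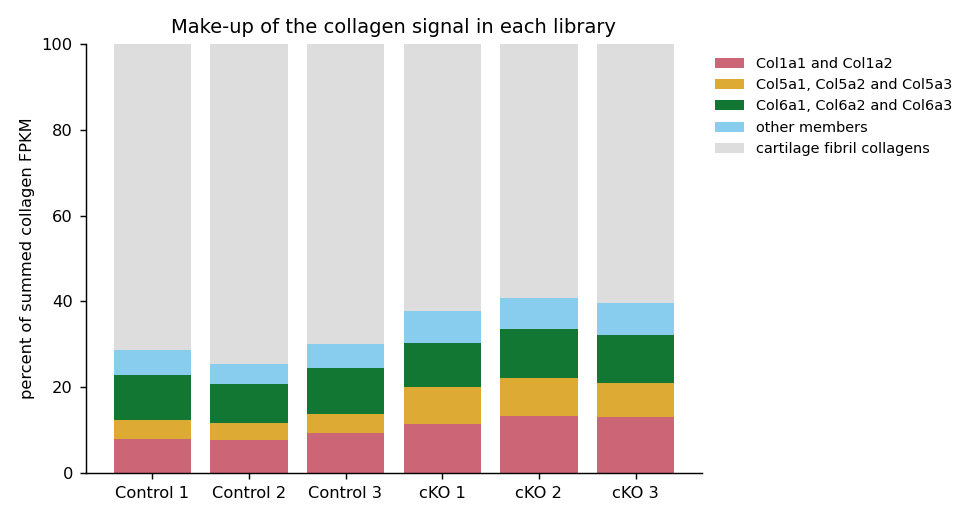
Stacked share of each library's summed collagen FPKM (y axis, percent, and x axis, the 6 libraries). The parts are the genes of collagen I, collagen V, collagen VI, the other collagens outside the cartilage set and the 8 cartilage collagen genes. The coloured part, all collagens outside the cartilage set, reaches 25.3 to 30.0% in control and 37.8 to 40.8% in cKO.

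Of the genes that modify, process and cross-link collagen chains, 22 of 29 tested were not called. The calls were 2 that rose (Bmp1 and Lox) and 5 that fell (Lepre1, Glt25d2, Pcolce2, Loxl1 and Loxl3). Over all genes tested, 9.81% were higher and 7.96% lower. The median difference of the 29 was -0.05 on the log2(FPKM + 1) scale. Lox, the lysyl oxidase that starts cross-links, rose 1.57-fold (557 ± 71.6 to 878 ± 42.6 FPKM, SD, n = 3; limma adjusted p = 0.00173). Pcolce2, an enhancer of the proteinase that trims the C-terminal propeptide, fell 2.72-fold (161 ± 13.5 to 59.2 ± 3.28 FPKM, SD, n = 3; limma adjusted p = 7.2e-06). Glt25d2, a galactosyltransferase acting on hydroxylysine, fell 1.97-fold (limma adjusted p = 0.00262). Loxl1, a relative of Lox, fell 1.58-fold (limma adjusted p = 0.0462).

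Among collagen receptors, 4 of 11 tested genes rose (Itga1, Itga2, Itga11 and Antxr1) and 2 fell (Mrc2 and Cspg4), with a median difference of 0.0017. The shares over all genes tested were 9.81% higher and 7.96% lower. Itga11, the integrin chain that binds fibrillar collagen on fibroblasts and other mesenchymal cells, stood at 6.08, 8.31 and 8.95 FPKM in control and at 36.4, 47.9 and 42.1 FPKM in cKO. The 5.41-fold rise was larger than that of any collagen gene here with a fold (limma adjusted p = 1.1e-05). Itga2, the chain of another collagen-binding integrin, rose 6.33-fold (1.54 ± 0.473 to 9.73 ± 1.35 FPKM, SD, n = 3; limma adjusted p = 4.8e-05). Antxr1, a receptor for collagens and for collagen VI fragments, rose 1.76-fold (limma adjusted p = 0.000259). Cspg4, a proteoglycan that binds collagen VI, fell 1.67-fold (limma adjusted p = 0.0151).

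Basement membrane genes that accompany collagens IV and XVIII also went both ways. Of 12 tested, 3 were higher (Lama5, Lamb3 and Agrn) and 3 lower (Lama4, Nid1 and Nid2), against 9.81% and 7.96% of all genes tested. Their median difference was -0.14. Nid2, which links laminin to collagen IV, fell 1.95-fold (148 ± 16.9 to 75.8 ± 8.97 FPKM, SD, n = 3; limma adjusted p = 0.000432), and Lama4, a laminin chain, fell 1.61-fold (limma adjusted p = 0.00574). Agrn, the proteoglycan agrin, rose 1.80-fold (10.1 ± 0.806 to 18.1 ± 0.0316 FPKM, SD, n = 3; limma adjusted p = 0.000737), and Lamb3, an epithelial laminin chain, 2.54-fold (limma adjusted p = 0.00478).

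Markers of cells that make these collagens were read in the same libraries, and their part in the collagen differences was not tested. For the counts here and in the next paragraph, the shares over all genes tested were 9.81% higher and 7.96% lower. Beside collagens I, V and XII, osteoblast markers had 3 of 6 tested higher (Sp7, Ibsp and Alpl), while Runx2, Bglap and Bglap2 were not called. The list summed to 41.4 to 51.8 FPKM in control and 127 to 141 FPKM in cKO. Dmp1 and Phex were under 1 FPKM everywhere. Fibroblast and synovial markers had 3 of 8 tested higher (Dcn, Prg4 and Postn) and 2 lower (Cd34 and Lum), with a median difference of -0.18. They summed to 527 to 660 FPKM in control and 688 to 761 FPKM in cKO, while Dcn alone went from 314 ± 36.0 to 480 ± 35.0 FPKM (SD, n = 3). Thy1 was lower in every cKO library but not called (limma adjusted p = 0.0555). Tenocyte and ligament markers had none of 4 called, at 17.8 to 24.1 and 21.9 to 27.7 FPKM, with Tnmd under 1 FPKM. The 15 skeletal muscle markers summed to 7.19 to 8.93 FPKM in control and 131 to 218 FPKM in cKO. Of the 11 tested, 8 passed the expression filter through the cKO libraries, where they are high, which largely set the direction of their difference; the other 3 (Acta1, Tnnt3 and Tnni2) passed in both groups and were higher. Pax7, which defines muscle stem cells, was listed at 0.

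Beside collagens IV and XVIII, endothelial markers had none of 1 tested called, at 1.57 to 4.63 FPKM in control and 2.96 to 4.79 FPKM in cKO, with Tie1 and Emcn at 0 and Pecam1, Cdh5 and Kdr under 1 FPKM. Mural and smooth muscle markers had 4 of 7 tested higher (Acta2, Cnn1, Mcam and Des, the last passing the filter through the cKO libraries) and 1 lower (Cspg4), at 309 to 480 FPKM in control and 455 to 600 FPKM in cKO, with Myh11 and Rgs5 under 1 FPKM. Epithelial markers had 1 of 1 tested higher (Trp63), at 2.56 to 3.67 and 9.06 to 10.01 FPKM, with Krt5 at 0. Macrophage and leukocyte markers had 1 of 4 tested higher (Fcer1g, which passed the filter through the cKO libraries), at 9.25 to 48.9 and 24.7 to 34.6 FPKM, and adipocyte markers 1 of 3 lower (Pparg), at 30.4 to 93.5 and 75.2 to 106 FPKM. Chondrocyte markers had 5 of 9 tested lower (Acan, Comp, Matn1, Matn3 and Hapln1) and none higher, from 3588 to 4498 FPKM in sum to 2245 to 2697 FPKM.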

How the data were processed

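RNA of 6 libraries of primary chondrocytes was sequenced, 3 control and 3 Uhrf1 cKO. Per the labels' protocols, the RNA integrity number exceeded 8 and a stranded mRNA kit was used; the series text names an Illumina MiSeq. The submitters' processing notes name TopHat, Cufflinks and mm10; the sources used here give no version, annotation or strand setting. The deposited values are FPKM for each library and group. The authors also deposited, for their own comparison, a log2 fold change, a p-value with its q-value and a score (the test statistic). Table starts count from 0 (plus 1, 18 of 44 collagen starts equal the GENCODE start; as written, 2 do), so 1 was added. An exact 0 may be a failed estimate.

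FPKM are not counts, so genes with at least 1 FPKM in 2 libraries entered limma (version 3.58.1, under R 4.3.3; trend and robust options, two-sided, Benjamini-Hochberg, pseudocount 1), after a check on simulated data. The log2(FPKM + 1) scale understates changes of low genes. A fold divides the mean FPKM of one group by the other, and is left out where either mean is under 1 FPKM. Chain ratios were tested with exact permutation tests (scipy 1.17.1).

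The genes and lists were chosen with earlier results of these data known. Per-library values are given for called collagens, the 5 highest and partners in the same molecule; from the other lists up to 4 called genes by size of ratio where the higher group reached 5 FPKM. Col24a1, Col14a1, Col16a1, Col15a1, Col8a1, Col8a2 and Col26a1 were described after their values were seen. Acan, Ddx3y and the marker genes give context. Alternatives were other thresholds, filters, pseudocounts and scalings, a replicate block, leaving out each library, the authors' test and, added after seeing the data, Ddx3y as a covariate.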

Additional observations from a re-analysis of the deposited data

How the results depend on the processing

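The number of genes called, 2116, was 1024 at an adjusted p under 0.01, 506 with a log2 difference of at least 1 and 1268 to 1998 without each library. Collagens called higher, 7, were 3 at 0.01 and 0 with a difference of at least 1 on the log2(FPKM + 1) scale. They were 4 with Ddx3y as a covariate and 4 to 7 without each library. Those called lower, 4, were 1, 1 and 2 under the same settings, 2 without an expression filter, 2 after upper quartile scaling, 2 in the authors' deposited table and 1 to 7 without each library. Col4a5, Col5a2, Col5a3 and Col12a1 kept their calls without each library. So did Col28a1, but it passed the expression filter through the controls, which largely set its direction. The covariate ended the calls of Col18a1, Col4a6, Col5a1, Col4a2 and Col6a3.

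The difference of log2 ratios of Col4a5 to Col4a6 was 0.46 with 5 added to each FPKM, against -0.25. That of Col6a3 to Col6a1, -0.02, ranged from -0.087 to 0.055 without each library. Uncalled differences near 0 changed sign: Col3a1 was 0.0087 with the covariate and -0.069 to 0.062 without each library, Col14a1 -0.073 to 0.23 and Col16a1 -0.33 to 0.10. The cause was not tested.

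Same-numbered libraries did not deviate together (correlations 0.169, 0.0258 and -0.0443 across 11911 genes) and did not each correlate best with their own number. The replicate block gave 7 collagens higher, adding Col1a1 and dropping Col4a6, 4 lower and 1151 and 946 genes. Depth is unknown, and genes under 1 FPKM in every library were given no direction.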
